A study of Mus musculus with 6 samples.

Results

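The genes described here were 10 genes that mast cells are known for, read from a table of 22513 gene entries. They were *Mcpt1* and *Mcpt2*, the proteases of mucosal mast cells, *Mcpt4*, *Cpa3*, *Tpsb2* and *Hdc*, the granule genes of connective tissue mast cells and of mast cells in general, and *Kit*, *Fcer1a*, *Ms4a2* and *Gata2*, which mark the lineage. They were picked by name after their levels in these same libraries were known, so their levels are given as a description without a test. The material was cultured fetal thymus of C57BL/6 mice. Lobes from E15.5 embryos, wild type (WT) or homozygous for a germline null allele of *Jmjd6* (Jmjd6-/-), were treated with 2-DG (2′-deoxyguanosine), which kills dividing haematopoietic cells, for 4 days, and were then left unstimulated or were given RANKL, the ligand of the receptor RANK, for 4 days. All 6 libraries shared the 2-DG treatment. There was 1 unstimulated library of each genotype and there were 2 RANKL libraries of each genotype. The labels call the repeats technical duplicates, so the spread between them may be technical, and the null allele was carried by every cell of the lobe.

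Mast cells are granulated blood cells that mature in tissues under KIT ligand. Those of mucosal surfaces store the chymases encoded by *Mcpt1* and *Mcpt2*, while those of skin and other connective tissues store the chymases encoded by *Mcpt4* and *Cma1*, tryptases and carboxypeptidase A3. Both kinds make histamine with histidine decarboxylase, the product of *Hdc*, and carry KIT and the high affinity IgE receptor at their surface. Fetal thymus is seeded by blood progenitors, and cells that survive 2-DG, such as macrophages, stay in the cultured lobe beside the epithelium.

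Levels are FPKM, a fragment count scaled by exon length and by library depth, so that genes of different length can be compared. From the steps between low FPKM values the libraries were estimated to hold 15200000 to 31300000 fragments. The level of a gene was turned with these into an approximate number of fragments, and 3 fragments were taken as the floor. No fold was computed between groups that were both at or under the floor. A group of 0 fragments was set to the floor, which gives a bound. Other numbers under the floor were used as they stood, so folds and ratios that rest on them are poorly fixed. Where 3 values of a genotype are given, they are in the order unstimulated, RANKL replicate 1 and RANKL replicate 2. *Jmjd6* itself ranged from 25.9 to 32.5 FPKM in the 3 WT libraries and from 1.32 to 1.96 FPKM in the 3 Jmjd6-/- libraries. *Foxn1*, the transcription factor of thymic epithelium, ranged from 80.8 to 117 FPKM. Of the T-cell genes, *Cd3d* and *Cd3e*, parts of the T-cell receptor, ranged from 0 to 0.0345 FPKM, while *Lck* and *Cd4* reached 1.91 and 1.45 FPKM. The share of stroma in the lobes was not measured. Blood cells remained, since *Ptprc*, which encodes CD45, lay between 2.89 and 6.81 FPKM. *Laptm5*, also common to blood cells, lay between 20.5 and 39.2 FPKM.

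**Figure D1:**
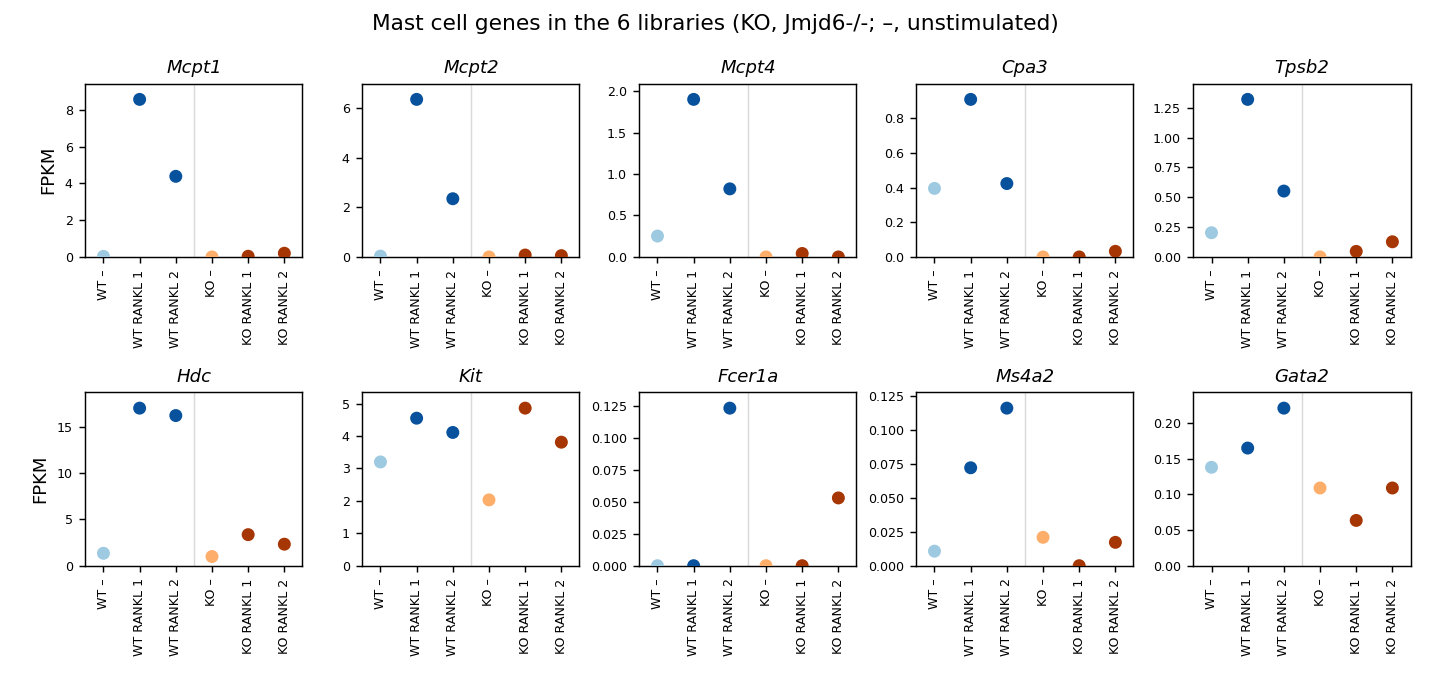
FPKM of the 10 mast cell genes in each library, 1 panel per gene with its own linear axis from 0. Each point is 1 library, blue for WT and orange or brown for Jmjd6-/- (KO), light for unstimulated and dark for RANKL. The 5 proteases and *Hdc* were highest in the WT RANKL libraries, and *Kit* was at like levels in both genotypes under RANKL. *Cpa3* in WT RANKL replicate 2 (0.423 FPKM) was level with the unstimulated WT library (0.395 FPKM).

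The mucosal proteases were close to 0 without RANKL and were prominent in WT stroma with it. *Mcpt1* (XLOC_005776, chromosome 14, 56017964 to 56020391 of mm10) was at 0.0316 FPKM in the unstimulated WT library and at 8.56 and 4.38 FPKM in WT RANKL replicates 1 and 2. In the Jmjd6-/- libraries it was listed at 0 without RANKL and at 0.037 and 0.201 FPKM with it. In fragments these were 1, 179 and 57 for WT, against 0, 1 and 3 for Jmjd6-/- stroma, so that both Jmjd6-/- RANKL libraries lay far below both WT RANKL libraries. *Mcpt2* (XLOC_005777, chromosome 14, 56042123 to 56044634) was at 0.0331, 6.36 and 2.35 FPKM in the unstimulated WT library and WT RANKL replicates 1 and 2. It was at 0, 0.0775 and 0.0526 FPKM in the corresponding Jmjd6-/- libraries. Its 140 and 33 fragments in WT RANKL stroma stood against 1 or 2 in the Jmjd6-/- RANKL libraries, and the genotypes did not overlap. In a bulk library, fewer cells of a type and less RNA in each cell cannot be told apart, and which cells of the lobe held this RNA was not tested.

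As means, *Mcpt1* reached 6.47 ± 2.96 FPKM (SD, n = 2) in WT RANKL stroma and 0.119 ± 0.116 FPKM (SD, n = 2) in Jmjd6-/- RANKL stroma. By pooled fragments per library depth, it was 69.0 times higher in WT than in Jmjd6-/- RANKL stroma, with a 95% counting interval of 26.6 to 255. *Mcpt2* was 67.5 times higher, with an interval of 22.7 to 330. Against the unstimulated WT library, which held 1 fragment of each, the WT RANKL libraries were 187 times higher for *Mcpt1* (interval 33.3 to 7440) and 137 times higher for *Mcpt2* (interval 24.3 to 5460). These intervals cover counting error alone and not the spread between libraries. The size of both folds is poorly fixed because the lower side rests on a handful of fragments.

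The chymase genes lie side by side and their sequences are alike, which bears on how far their reads could be kept apart. The transcripts of *Mcpt1* and *Mcpt2* were identical at 82.2% of aligned bases and those of *Mcpt1* and *Mcpt4* at 85.6%. The longest stretch that *Mcpt1* shared was 49 bases with *Mcpt2* and 46 bases with *Mcpt4*. None of the 914 windows of 101 bases, the read length, in the *Mcpt1* transcript was found in the transcripts of *Mcpt2*, *Mcpt4*, *Mcpt8*, *Mcpt9* or *Cma1*. A full-length exact read could therefore be assigned to 1 of these genes. The set of RefSeq promoters used here (GRCm38.p6) held an upstream stretch for 8 of the 10 genes, without *Mcpt2* and *Tpsb2*. The 250 bases before the start of 4 of them are shown to set a mucosal chymase beside its connective tissue neighbour, and carboxypeptidase beside histidine decarboxylase. They lie at chr14:56017714-56017963 on the plus strand for *Mcpt1*, chr14:56062311-56062560 on the minus strand for *Mcpt4*, chr3:20242182-20242431 on the minus strand for *Cpa3* and chr2:126618679-126618928 on the minus strand for *Hdc*. Capitals mark a GATA motif (GATA with A or T before it and A or G after it, on either strand) and the letters TATAAA, 2 motifs that do not overlap.
Mcpt1: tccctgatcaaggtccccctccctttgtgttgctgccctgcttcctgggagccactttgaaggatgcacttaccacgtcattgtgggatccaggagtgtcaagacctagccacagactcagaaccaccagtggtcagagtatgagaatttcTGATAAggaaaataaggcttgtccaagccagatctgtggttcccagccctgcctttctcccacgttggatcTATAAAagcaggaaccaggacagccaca
Mcpt4: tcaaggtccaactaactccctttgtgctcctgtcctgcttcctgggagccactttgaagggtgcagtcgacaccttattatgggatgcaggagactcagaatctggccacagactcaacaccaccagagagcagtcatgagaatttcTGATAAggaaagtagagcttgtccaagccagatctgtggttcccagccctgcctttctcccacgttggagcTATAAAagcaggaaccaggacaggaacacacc
Cpa3: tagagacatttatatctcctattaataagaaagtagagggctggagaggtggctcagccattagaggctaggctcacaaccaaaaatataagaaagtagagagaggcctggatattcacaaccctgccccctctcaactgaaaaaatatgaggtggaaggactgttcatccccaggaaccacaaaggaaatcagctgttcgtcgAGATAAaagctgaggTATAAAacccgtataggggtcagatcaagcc
Hdc: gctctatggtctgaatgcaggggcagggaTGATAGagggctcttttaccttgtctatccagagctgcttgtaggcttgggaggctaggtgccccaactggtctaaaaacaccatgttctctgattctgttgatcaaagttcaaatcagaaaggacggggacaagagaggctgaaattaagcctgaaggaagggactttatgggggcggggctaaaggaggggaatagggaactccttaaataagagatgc
The stretches of *Mcpt1* and *Mcpt4* were identical at 209 of 242 aligned bases (86.4%). Both held a GATA motif, which began at position -99 from the start in *Mcpt1* and at -103 in *Mcpt4*, and both held TATAAA, at -28 and -32. *Cpa3* had its GATA motif at -46 and TATAAA at -31, while *Hdc* had a GATA motif at -221 and no TATAAA. Of the 8 genes with a stretch, 6 held a GATA motif against 26.5% of all 32536 promoters, and 4 held TATAAA against 7.55%. The E-box, CANNTG, which is not in capitals above, was held by 3 of the 8 against 66.2% of all promoters, with 2 in *Cpa3* and 1 in *Hdc*. *Kit* and *Gata2* held none of the 3 motifs. These matches are letters in a window and no binding was measured.

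The proteases of connective tissue mast cells showed another order before and after RANKL. *Mcpt4* (XLOC_006179, chromosome 14, 56059744 to 56062310) was at 0.252 FPKM in unstimulated WT stroma, at 1.90 and 0.821 FPKM in WT RANKL replicates 1 and 2, at 0 in unstimulated Jmjd6-/- stroma and at 0.0419 and 0 FPKM in the Jmjd6-/- RANKL libraries. *Cpa3* (XLOC_012713, chromosome 3, 20215616 to 20242181), the gene for mast cell carboxypeptidase, was at 0.395, 0.908 and 0.423 FPKM in the WT libraries in the same order, and at 0, 0 and 0.0325 FPKM in the Jmjd6-/- libraries. *Tpsb2* (XLOC_008043, chromosome 17, 25366333 to 25368092), which encodes a tryptase, was at 0.203, 1.32 and 0.552 FPKM in the WT libraries, against 0, 0.0466 and 0.127 FPKM in Jmjd6-/- stroma. All 3 were thus above 0 in WT stroma that had never been given RANKL, with 8, 16 and 6 fragments for *Mcpt4*, *Cpa3* and *Tpsb2*. All 3 were listed at 0 in the unstimulated Jmjd6-/- library, which sets *Cpa3* at least 2.78-fold higher in the WT library and *Mcpt4* at least 1.39-fold higher, against a floor of 3 fragments. These are single libraries without a replicate. On the log2(FPKM + 0.1) scale, 3 of the 10 genes were over 2-fold lower in the unstimulated Jmjd6-/- library, as were 3.09% of the 19264 entries with any signal.

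*Cpa3* changed little beside the mucosal proteases. WT RANKL libraries were 1.84 times the unstimulated WT library for *Cpa3* (counting interval 0.997 to 3.54), 5.56 times for *Mcpt4* (2.64 to 13.5) and 5.16 times for *Tpsb2* (2.17 to 14.9). WT RANKL replicate 2, at 0.423 FPKM, was level with the unstimulated library at 0.395 FPKM. Between genotypes under RANKL, *Mcpt4* was 65.5 times higher in WT (11.3 to 2630), *Cpa3* 43.3 times (7.3 to 1760) and *Tpsb2* 15.2 times (4.84 to 76.9). For none of these 3 did the genotypes overlap under RANKL, and the Jmjd6-/- RANKL libraries together held 1, 1 and 3 fragments.

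Set against *Cpa3* in the same library, the mucosal proteases, *Hdc*, *Mcpt4* and *Tpsb2* were all higher in both WT RANKL libraries than in the unstimulated WT library. *Mcpt1* was at 0.0801 of the *Cpa3* level in unstimulated WT stroma (95% counting interval 0.00224 to 0.605), and at 9.43 times (6.24 to 14.3) and 10.3 times (5.09 to 26.0) that level in WT RANKL replicates 1 and 2. *Mcpt2* went with it, from 0.0838 (0.00213 to 0.574) to 7.0 (4.59 to 10.7) and 5.56 (2.66 to 14.7). *Hdc* over *Cpa3* was 3.4 (1.99 to 6.2) without RANKL and 18.8 (12.8 to 27.8) and 38.1 (20.1 to 92.7) with it. For *Mcpt1*, *Mcpt2* and *Hdc* the interval of the unstimulated library did not reach that of either RANKL library. The genes were picked on these levels and the intervals cover counting error alone, so this is a description and no test. *Mcpt4* over *Cpa3* was 0.638 without RANKL and 2.09 and 1.94 with it, and the intervals of both replicates overlapped that of the unstimulated library. *Tpsb2* over *Cpa3* was 0.513 without RANKL and 1.46 and 1.30 with it, again with overlapping intervals. With 8 fragments of *Mcpt4* and 6 of *Tpsb2* in the unstimulated library, the overlap does not show that these ratios were unchanged. *Mcpt1* over its neighbour *Mcpt4* was 0.126 without RANKL (0.00312 to 1.03, on 1 fragment over 8). With RANKL it was 4.50 (3.23 to 6.42) and 5.33 (2.79 to 10.8). The same ratios could not be read in Jmjd6-/- stroma, where *Cpa3* held at most 1 fragment in a library.

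**Figure D2:**
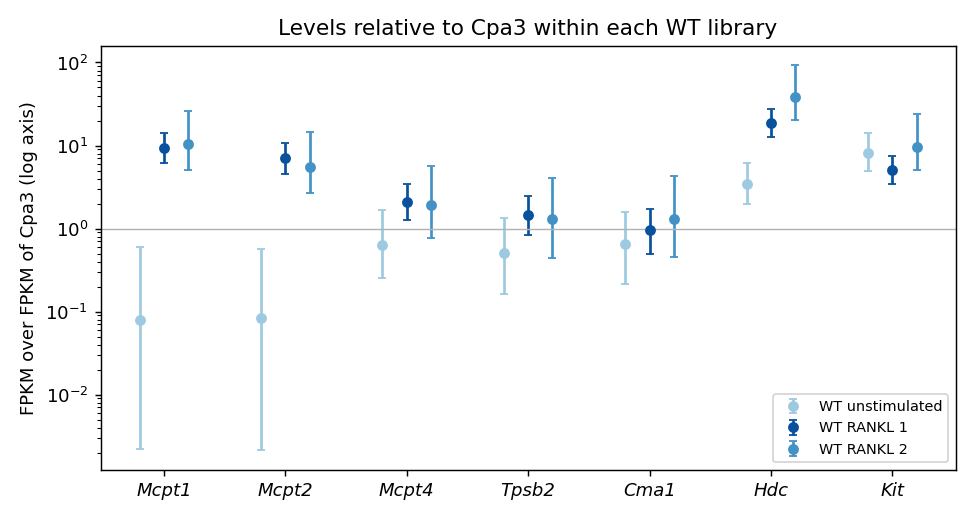
FPKM of each gene over the FPKM of *Cpa3* in the same WT library, on a log axis, with 95% counting intervals. Light blue is the unstimulated library and darker blues are the RANKL libraries. *Mcpt1* and *Mcpt2* were under 0.1 without RANKL and between 5 and 11 with it, and *Hdc* went from 3.4 to 18.8 and 38.1. *Mcpt4*, *Tpsb2* and *Cma1* were also higher with RANKL, on few fragments and with overlapping intervals. *Kit* was lower in replicate 1 and higher in replicate 2. The intervals cover counting error alone and are no test.

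*Hdc* (XLOC_011832, chromosome 2, 126593668 to 126618665) had the highest level of the 10 genes under RANKL in WT, and unlike the proteases it was well above its floor everywhere. It was at 1.34 FPKM in unstimulated WT stroma and at 17.0 and 16.2 FPKM in WT RANKL replicates 1 and 2. In Jmjd6-/- stroma it was at 0.991 FPKM without RANKL and at 3.35 and 2.32 FPKM with it. The WT RANKL libraries were far above all others, and both Jmjd6-/- RANKL libraries were above both unstimulated libraries. The unstimulated genotypes were within counting error of each other, with WT at 1.36 times Jmjd6-/- (0.917 to 2.06). RANKL libraries were 12.5 times the unstimulated one in WT (10.1 to 15.5) and 2.96 times in Jmjd6-/- stroma (2.09 to 4.3), and under RANKL WT was 5.73 times Jmjd6-/- (5.06 to 6.51). On the log2(FPKM + 0.1) scale the RANKL response of *Hdc* was 3.53 in WT and 1.41 in Jmjd6-/- stroma. Over all 15894 genes tested with limma, none passed Benjamini-Hochberg adjustment at 0.05 for a difference in RANKL response between the genotypes, and 664 had an unadjusted p under 0.05. That test rests on 1 unstimulated library a genotype.

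Among the genes that mark the lineage, *Kit* did not follow the granule genes. *Gata2* and *Ms4a2* were lower in Jmjd6-/- than in WT RANKL stroma, on few fragments, and *Fcer1a* could not be read. *Kit* (XLOC_014814, chromosome 5, 75574987 to 75656721), the receptor for KIT ligand that progenitors and melanocytes also carry, was at 3.20, 4.55 and 4.11 FPKM in the unstimulated WT library and WT RANKL replicates 1 and 2. It was at 2.03, 4.86 and 3.81 FPKM in the matching Jmjd6-/- libraries. Under RANKL the genotypes overlapped, and the means were 4.33 ± 0.315 and 4.33 ± 0.740 FPKM (SD, n = 2 each), a ratio of 0.995 by fragments (0.908 to 1.09). *Kit* was 1.37 times higher with RANKL in WT (1.23 to 1.53) and 2.16 times in Jmjd6-/- stroma (1.84 to 2.56), counting error only.

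*Fcer1a* (XLOC_001152, chromosome 1, 173221271 to 173227229), the IgE-binding chain of the receptor, was listed at 0 in 4 libraries and reached 0.123 FPKM in WT RANKL replicate 2 and 0.0529 FPKM in Jmjd6-/- RANKL replicate 2, or 2 and 1 fragments. *Ms4a2* (XLOC_010036, chromosome 19, 11615521 to 11623719), the β chain, was at 0.0107, 0.0721 and 0.116 FPKM across the WT libraries, against 0.0209, 0 and 0.0172 FPKM in Jmjd6-/- stroma. At most 4 fragments stood behind any of its values, so the receptor genes were at or barely above the floor in all libraries. By pooled fragments, 8 against 1, *Ms4a2* was 9.36 times higher in WT than in Jmjd6-/- RANKL stroma, with an interval of 1.25 to 415. *Gata2* (XLOC_016220, chromosome 6, 88198664 to 88207032), a transcription factor of mast cell progenitors, was at 0.138, 0.165 and 0.221 FPKM across the WT libraries, against 0.109, 0.0635 and 0.109 FPKM in Jmjd6-/- stroma, with 6 to 15 fragments each. Its WT RANKL libraries were 2.25 times the Jmjd6-/- ones, with an interval of 1.11 to 4.79. Thus the name mast cell genes rests, in these libraries, on the granule genes of WT stroma, and the defining receptor subunits gave almost no signal beside them.

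Over all 10 genes, 8 had both Jmjd6-/- RANKL libraries below both WT RANKL libraries, where 26.5% of the 19264 entries with any signal did so. With RANKL, 9 of the 10 had both WT libraries above the unstimulated WT library (35.3% of entries), and 5 of the 10 had both Jmjd6-/- libraries above the unstimulated Jmjd6-/- library (37% of entries). The genes were chosen on these values and nothing is read from the counts. A mean of at least 0.1 FPKM over the libraries was reached by 8 of the 10, which leaves out *Fcer1a* and *Ms4a2*. *Mcpt1*, *Mcpt2*, *Mcpt4* and *Tpsb2* reached it only through the WT RANKL libraries, with 0.0408 to 0.0942 FPKM over the other 4. In log2(FPKM + 0.1), Jmjd6-/- less WT under RANKL, *Mcpt1* and *Mcpt2* were at -4.94 and -4.60, *Mcpt4* at -3.51, *Cpa3* at -2.66, *Hdc* at -2.53, *Tpsb2* at -2.40, and *Gata2* and *Kit* at -0.66 and -0.01. The mean of *Mcpt1* and *Mcpt2* less the median of the other 8 was -3.15 on this scale. It was -2.11 against *Mcpt4*, *Cpa3* and *Tpsb2* alone, a set chosen after the values were seen. Low genes are held back on this scale by the added 0.1, so the fold from fragments, 69.0 for *Mcpt1* and 65.5 for *Mcpt4*, did not separate these 2 genes.

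The order of levels in WT RANKL stroma was *Hdc*, *Mcpt1*, *Mcpt2* and *Kit*, *Mcpt4*, *Tpsb2*, *Cpa3*, *Gata2* and then the receptor chains. By mean FPKM these were 16.6 ± 0.631 for *Hdc*, 4.36 ± 2.83 for *Mcpt2*, 1.36 ± 0.762 for *Mcpt4*, 0.937 ± 0.545 for *Tpsb2*, 0.666 ± 0.342 for *Cpa3* and 0.193 ± 0.0392 for *Gata2* (SD, n = 2 each). The libraries of *Mcpt1*, *Mcpt2* and *Kit* overlapped, as did those of *Mcpt4*, *Tpsb2* and *Cpa3*. In both WT RANKL libraries, taken singly, *Mcpt1* exceeded *Mcpt2*, and *Mcpt4* exceeded *Tpsb2*, which exceeded *Cpa3*.

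The proteases also differed together between the WT RANKL libraries. Replicate 1 over replicate 2 was 1.96 for *Mcpt1*, 2.70 for *Mcpt2*, 2.31 for *Mcpt4*, 2.14 for *Cpa3* and 2.39 for *Tpsb2*. For *Hdc* and *Kit* it was 1.06 and 1.11, and for *Gata2* and *Ms4a2* it was 0.749 and 0.623. All 5 proteases were therefore higher in replicate 1, whereas *Hdc* was level. A ratio above 1.5 was found for 5 of the 10 genes and for 13.0% of tested genes. Among proteases outside the 10, *Cma1* and *Gzmb* stood at 1.58 and 1.83 and *Tpsg1* and *Prss34* at 0.487 and 0.417. Over 12587 genes the WT RANKL libraries correlated at 0.973 and the Jmjd6-/- RANKL libraries at 0.996, a description across genes, which are not replicates.

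**Figure D3:**
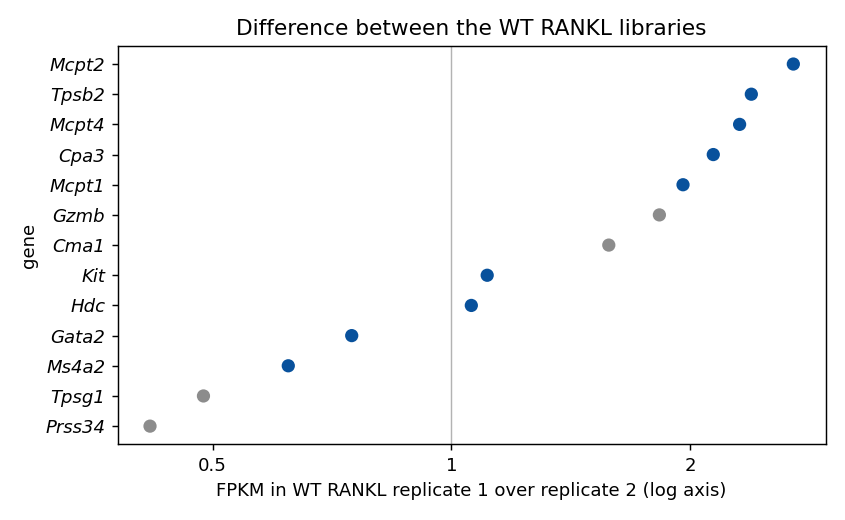
FPKM in WT RANKL replicate 1 over that in replicate 2 for each gene, on a log axis, with blue points for the mast cell genes and grey points for 4 other proteases. *Mcpt1*, *Mcpt2*, *Mcpt4*, *Cpa3* and *Tpsb2* lie between 1.96 and 2.70, and *Hdc* and *Kit* lie near 1. *Fcer1a*, at 0 in replicate 1, is left out.

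The chymase genes form a block of 16 genes with the granzymes on chromosome 14, from 55941451 to 56262260. Of the 13 outside the 10 mast cell genes, 9 had at most 3 fragments in every library, at or under the floor. For 6 of the 13 the WT RANKL libraries were each above both Jmjd6-/- RANKL libraries, against 26.5% of entries. Among these, *Mcpt8*, *Cma2* and *Gzmf* had at most 3 fragments in a library and *Mcpt-ps1* at most 4, so nothing is read from the count. *Gzmc* overlapped, at 0.138 and 0.559 FPKM in WT and 0.147 and 0.133 FPKM in Jmjd6-/- RANKL stroma. *Cma1*, the connective tissue chymase, was at 0.257, 0.870 and 0.553 FPKM in the unstimulated WT library and WT RANKL replicates 1 and 2, and was listed at 0 in all Jmjd6-/- libraries. Over *Cpa3* it was at 0.650, 0.959 and 1.31 in these WT libraries. It was at least 10.5-fold lower in Jmjd6-/- than in WT RANKL stroma by the floor over the group. *Gzmb*, the cytotoxic protease granzyme B that mucosal mast cells can also hold, was at 0.723 and 0.395 FPKM in WT RANKL and at 0 and 0.0373 FPKM in Jmjd6-/- RANKL stroma. Of the 13 genes, 3 were tested and limma called *Cma1* lower in Jmjd6-/- stroma, where 1.82% of tested genes were called lower and 0.516% higher. *Cma1* and *Gzmb* passed the filter on low values only through the WT RANKL libraries, with means of 0.0643 and 0.0207 FPKM over the other 4, so nothing is read from their tests. The basophil protease *Mcpt8* had 1 fragment in each WT RANKL library and none elsewhere.

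**Figure D4:**
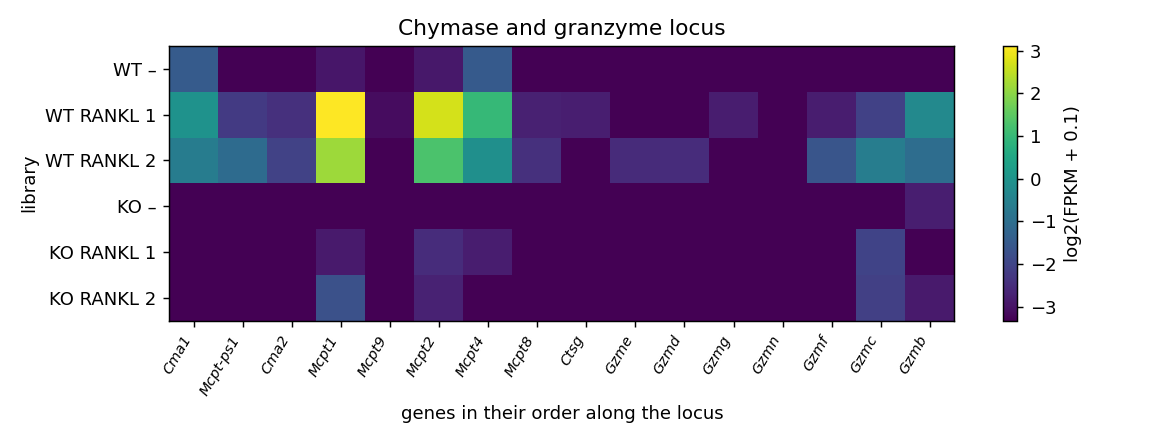
log2(FPKM + 0.1) of the 16 chymase and granzyme genes in the 6 libraries, with genes in their order along chromosome 14 and libraries in rows (KO, Jmjd6-/-; –, unstimulated). *Mcpt1*, *Mcpt2* and *Mcpt4* stand out in the WT RANKL rows, and the Jmjd6-/- rows are near the value of 0 FPKM. In the unstimulated WT row *Cma1* and *Mcpt4*, at 0.257 and 0.252 FPKM, lie above the other genes.

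Other tryptases were measured on chromosome 17 beside *Tpsb2*. *Tpsg1*, a membrane-bound tryptase, was at 0.0421, 0.607 and 1.25 FPKM in WT and was listed at 0 in all Jmjd6-/- libraries. By the floor over the group it was at least 13.7-fold lower in Jmjd6-/- than in WT RANKL stroma. The entry of *Tpsg1* shares its interval, 25370553 to 25433783, with *Cacna1h* on the other strand, and without a step that keeps the strand their reads cannot be told apart. *Prss34*, a protease of basophils and mast cells, was at 0.0362, 0.476 and 1.14 FPKM across the WT libraries, against 0, 0.0421 and 0 FPKM in Jmjd6-/- stroma. *Tpsab1*, the tryptase of connective tissue mast cells, had 2 fragments in WT RANKL replicate 1 and none elsewhere. Of these 3 genes 2 were tested and limma called *Tpsg1*, but both passed the filter only through the WT RANKL libraries, with means of 0.0105 and 0.0196 FPKM over the other 4, and nothing is read from these tests.

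Several receptor and signalling genes of mast cells were higher with RANKL in both genotypes. Of 21 genes, 16 were tested, none passed between the genotypes, and 5 rose and 1 fell with RANKL, where 10.5% of all tested genes rose and 4.11% fell. Since the repeats may be technical duplicates, the SE and p-values here and below may not cover variation between cultures or embryos. *Csf2rb*, the common β chain of the receptors for IL-3, IL-5 and GM-CSF, was at 1.75 FPKM without and 11.6 ± 2.26 FPKM (SD, n = 2) with RANKL in WT, and at 2.27 and 11.8 ± 0.393 FPKM in Jmjd6-/- stroma (log2 change with RANKL 2.49, SE 0.16, adjusted p = 0.000197 from limma). *Csf2rb2*, its IL-3-specific partner, rose by 2.02 and *Il9r*, the receptor for IL-9, by 3.07, with adjusted p = 0.00116 and 0.0006. *Il9r* went from 0 to 0.697 and 0.637 FPKM in WT and from 0.0238 to 1.04 and 1.02 FPKM in Jmjd6-/- stroma. *Ptger3*, a receptor for prostaglandin E, rose by 1.01 and the adaptor gene *Lat2* by 0.99, while the kinase gene *Lyn* fell by 0.79. These genes are shared with other blood cells, and *Fcer1g*, the γ chain that macrophages use as well, was at 47.8 to 93.0 FPKM in the 6 libraries. *Il1rl1*, the IL-33 receptor, was at 0.147, 0.401 and 0.183 FPKM across the WT libraries, against 0.0214, 0.0662 and 0.0397 FPKM in Jmjd6-/- stroma, and did not pass (-1.31, adjusted p = 0.179).

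Among 10 transcription factors of the lineage, 9 were measured and 8 tested. *Gfi1b*, *Zfpm1* and *Bhlhe40* rose with RANKL, by 2.17, 0.85 and 0.82 on the log2 scale (adjusted p = 0.0107, 0.0236 and 0.007 from limma), and none of the 8 passed between the genotypes, where 10.5% of all tested genes rose and 1.82% were lower in Jmjd6-/- stroma. *Mitf*, which drives many mast cell genes, was at 3.61 to 4.33 FPKM in all 6 libraries, and *Gata1* had 1 fragment in all. *Zfpm1* lost its call when either Jmjd6-/- RANKL library was left out.

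Of 11 genes for mediators and the granule matrix, 2 rose with RANKL and none passed between the genotypes, where 10.5% of all tested genes rose. *Srgn*, whose product serglycin packs proteases into granules of many blood cells, was at 5.51, 379 and 370 FPKM across the WT libraries, against 6.55, 244 and 214 FPKM in Jmjd6-/- stroma. It rose by 5.58 (SE 0.20, adjusted p = 3.96e-05 from limma), and the difference of -0.71 between genotypes under RANKL stood at an adjusted p = 0.0504. *Tph1*, the serotonin-making enzyme that mast cells also hold, was at 0.266, 1.83 and 3.71 FPKM across the WT libraries, against 0.689, 1.29 and 1.72 FPKM in Jmjd6-/- stroma, a rise of 1.95 (adjusted p = 0.039). The *Tph1* call was lost without either Jmjd6-/- RANKL library. Enzymes of leukotriene and prostaglandin synthesis such as *Ltc4s* and *Hpgds*, at 0.845 to 2.12 and 3.16 to 5.06 FPKM, passed neither test.

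The signals known to feed mast cell growth and mucosal maturation were counted as a list of 22 genes, of which 21 were tested. Between genotypes 1 gene was called, lower in Jmjd6-/- stroma, where 1.82% of all tested genes were. With RANKL 2 rose and 3 fell, where 10.5% and 4.11% of all tested genes did. *Il9*, a cytokine of mucosal mast cell growth, was listed at 0 in unstimulated WT and in all Jmjd6-/- libraries, and was at 0.506 and 0.871 FPKM in the WT RANKL libraries, 5 fragments each. It was the gene called between genotypes. It passed the filter only through the WT RANKL libraries, so nothing is read from its test. *Il13* was at 0.115, 3.90 and 4.50 FPKM across the WT libraries, against 0.0746, 3.55 and 2.99 FPKM in Jmjd6-/- stroma and rose by 4.29 (adjusted p = 5.95e-05). *Itgb8*, part of an integrin that activates TGF-β, rose by 2.82 (adjusted p = 0.00231), from 0.0787 to 1.65 and 0.819 FPKM in WT and from 0.130 to 1.79 and 1.29 FPKM in Jmjd6-/- stroma. *Smad3*, *Jag1* and *Il33* fell by 0.58, 0.46 and 0.46, and the call of *Smad3* was lost without Jmjd6-/- RANKL replicate 1. *Kitl*, which encodes KIT ligand, was at 68.8, 48.0 and 33.8 FPKM across the WT libraries, against 82.3, 71.9 and 72.9 FPKM in Jmjd6-/- stroma. The genotypes did not overlap under RANKL, with Jmjd6-/- higher, but the difference of 0.85 missed the threshold (adjusted p = 0.081).

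Markers of other cell types differed between the same groups in part, and their part in the results was not tested. Of 8 neutrophil genes, 6 were tested and 4 rose with RANKL, and between genotypes 2 were lower and 1 higher in Jmjd6-/- stroma, where 10.5% of all tested genes rose and 1.82% and 0.516% were lower and higher. *Mpo* and *Ngp*, both granule genes of immature neutrophils, were listed at 0 in both unstimulated libraries. *Mpo* reached 1.20 and 1.40 FPKM in WT RANKL and 0.0967 and 0.133 FPKM in Jmjd6-/- RANKL stroma, and *Ngp* 1.27 and 2.03 against 0.189 and 0.103 FPKM. Both passed the filter only through the WT RANKL libraries, so nothing is read from their tests. They were among the 4 genes that rose and were the 2 that were lower, so nothing is read from these counts. The RANKL call of *Mpo* (adjusted p = 0.0387 from limma) was lost without any 1 of the 4 RANKL libraries, and that of *Ngp* (adjusted p = 0.0357) without WT RANKL replicate 1 or Jmjd6-/- RANKL replicate 1. *Ltf* was higher in Jmjd6-/- stroma by 2.43 (adjusted p = 0.028 from limma). The summed level of the neutrophil list was 2.79 and 15.4 FPKM in the unstimulated WT and Jmjd6-/- libraries, 113 and 173 FPKM in WT RANKL and 89.5 and 100 FPKM in Jmjd6-/- RANKL stroma, most of it *S100a8*. *S100a8*, the first gene of the list, rose with RANKL by 7.41 and *S100a9* by 2.66 (adjusted p = 1.5e-05 and 0.0114 from limma). Neither passed between genotypes under RANKL, at -0.92 and 0.77 (adjusted p = 0.0827 and 0.404 from limma). *Elane*, also in the list, had 1 fragment in WT RANKL replicate 1 and none elsewhere.

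Of 3 eosinophil genes in the table, 2 were tested. Over all tested genes, 10.5% rose and 4.11% fell with RANKL, and 1.82% were lower and 0.516% higher in Jmjd6-/- RANKL stroma. *Prg2*, the eosinophil major basic protein, was at 0.203, 6.06 and 6.64 FPKM across the WT libraries, against 0, 1.83 and 1.52 FPKM in Jmjd6-/- stroma. It rose with RANKL by 4.28 (adjusted p = 6.64e-05) and differed by -1.87 between Jmjd6-/- and WT under RANKL (adjusted p = 0.0316, both from limma). The list summed to 6.77 and 8.13 FPKM in WT RANKL, to 1.93 and 1.65 FPKM in Jmjd6-/- RANKL, and to 0.244 and 0.0382 FPKM in the unstimulated libraries. Of 6 macrophage genes none passed between the genotypes. *Mrc1* and *Cd14* rose with RANKL, by 1.48 and 0.96, and *Timd4*, *Emr1* and *Csf1r* fell, by 2.94, 1.00 and 0.62. Their sum was 63.9 to 94.2 FPKM in the 6 libraries. Of the 4 common haematopoietic genes none passed between the genotypes either, with sums of 34.2 to 55.9 FPKM, and *Ptprc* fell with RANKL by 1.00 (adjusted p = 0.00547).

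Of 8 T-cell genes 3 were tested, with sums of 1.11 to 3.52 FPKM, and *Lck* rose by 1.12. For this and the next lists, 10.5% of all tested genes rose and 4.11% fell with RANKL. Between genotypes under RANKL, 1.82% were lower and 0.516% higher in Jmjd6-/- stroma. Of 5 erythroid genes *Alas2* rose by 2.67, and the list summed to 2.65 to 13.4 FPKM. Of 7 tuft-like epithelial genes, *Pou2f3* rose by 0.99, and the list summed to 5.81 to 12.7 FPKM. The calls of *Cd14*, *Lck* and *Pou2f3* were each lost without either Jmjd6-/- RANKL library. Melanocyte genes, which share *Kit* and *Mitf* with mast cells, passed neither test, with *Tyr* between 0.0367 and 0.173 FPKM and a summed level of 0.347 to 2.97 FPKM. All 5 endothelial genes had both Jmjd6-/- RANKL libraries below both WT RANKL libraries, where 26.5% of the entries with any signal did so. Of the 5, 3 were over 2-fold lower in the unstimulated Jmjd6-/- library, as were 3.09% of these entries. The endothelial list summed to 22.4, 12.5 and 12.3 FPKM in WT, against 8.31, 4.62 and 4.1 FPKM in Jmjd6-/- stroma. *Pecam1* and *Cdh5* were lower in Jmjd6-/- stroma under RANKL, with differences of -1.74 and -1.60 (adjusted p = 0.0282 for both, from limma), calls that were lost without either Jmjd6-/- RANKL library. With *Kdr* they also fell with RANKL, by 0.92, 1.15 and 0.87. Of 9 thymic stroma genes none passed between the genotypes and *Aire* rose by 7.65 (adjusted p = 3.96e-05).

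**Figure D5:**
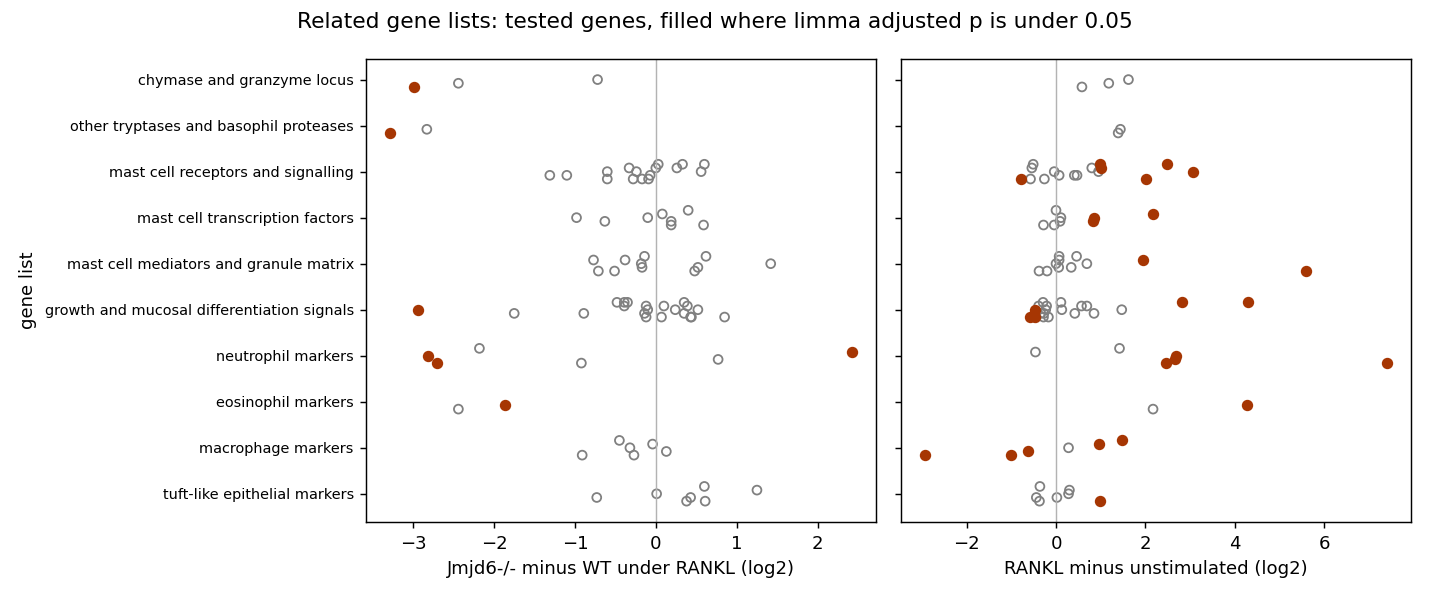
Log2 differences of the tested genes of 10 lists, Jmjd6-/- less WT under RANKL on the left and RANKL less unstimulated on the right, 1 point per gene. Filled points have a limma adjusted p under 0.05. On the left, *Cma1*, *Tpsg1*, *Il9*, *Mpo*, *Ngp* and *Prg2* lie below -1.8, all but *Prg2* tested only through their WT RANKL levels, *Ltf* lies above 2, and no gene of the receptor, transcription factor or mediator lists is filled.

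Across the 6 libraries the genes with the profile most like the mean log2 level of *Mcpt1* and *Mcpt2* were *Pifo*, *Alpl*, *Haus5*, *Clca5* and *Ceacam18*, with Pearson r from 0.9939 to 0.9977 among 15892 genes. *Ceacam18* was at 0.0165, 1.01 and 0.768 FPKM across the WT libraries, against 0.0325, 0.0578 and 0.0790 FPKM in Jmjd6-/- stroma. *Alpl* was at 1.22, 7.24 and 5.86 FPKM across the WT libraries, against 1.06, 1.33 and 1.36 FPKM in Jmjd6-/- stroma. The genes most like *Cpa3* were *Tbxa2r*, *Hes6*, *Serping1*, *Hspg2* and *6030419C18Rik*, with r from 0.9921 to 0.9971. *Hes6* was at 205, 248 and 207 FPKM across the WT libraries, against 99.9, 99.8 and 109 FPKM in Jmjd6-/- stroma, so it followed genotype more than RANKL. None of those named was another of the mast cell genes described here. The members themselves had lower r, 0.9597 for *Hdc*, 0.9336 for *Tpsb2*, 0.9118 for *Mcpt4*, 0.7898 for *Cpa3* and 0.5285 for *Kit* with the mucosal pair. With 6 libraries in 4 conditions these correlations are a description and carry no test.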

How the data were processed

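Gene expression had been measured by poly-A RNA sequencing in 6 libraries of 2-DG-treated fetal thymus. Per the labels and the methods, the authors sequenced 101-bp paired ends, mapped them to mm10 with TopHat2 2.0.10 and computed FPKM per gene with Cufflinks 2.1.1, with multi-read correction and a library type that assumes strand, although the library protocol mentions no strand marking. The deposited FPKM were used as they stood, so totals differed between libraries. All table columns could be matched to samples (0 were not), with groups from the titles. The treatment field gives RANKL for every sample, against the titles.

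Values were fitted as log2(FPKM + 0.1) with limma 3.58.1 in R 4.3.3, with a mean-variance trend, for the 15894 genes averaging 0.1 FPKM or more, and 1 mean per condition. p-values were adjusted by Benjamini-Hochberg over all of these and called under 0.05. They rest on the spread between the RANKL repeats, which may be technical, and so may not cover variation between cultures or embryos. The RANKL effect was taken over both genotypes, with genotype in the model. Exact permutation of 2 against 2 libraries cannot go below 0.333. Fragments were estimated from FPKM, transcript length less 150 bases and a depth read from the steps between FPKM under 0.15, and exact counting intervals (95%) cover counting error only. Depth is an estimate, since the values used are not counts. The fit was tested on simulated data.

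The members and lists were chosen with earlier results of these data known. Named were all 10 genes, up to 4 called genes per list by size of change (else its first gene), and the 5 genes most like the mucosal pair and *Cpa3*. *Lat2*, *Lyn*, *Jag1*, *Il33*, *Ltf*, *Csf1r*, *Cd4*, *Laptm5* and genes given only as missing the threshold were named after their values were seen. *Spi1* and *Siglecf* were not analysed here. Replicate numbers were compared over 12587 genes, and the deviations of same-numbered libraries correlated at -0.0778. Alternatives were the added constant, the filter, the trend, the scaling, a replicate block, the RANKL libraries alone and leaving out each RANKL library.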

Additional observations from a re-analysis of the deposited data

Results flagged for a closer look

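For *Ms4a2*, both WT RANKL libraries were above the unstimulated WT library, by 0.80 on the log2(FPKM + 0.1) scale on average, and both Jmjd6-/- RANKL libraries were below the unstimulated Jmjd6-/- library, on average at -0.16. *Gata2* did likewise, at 0.29 in WT and -0.18 in Jmjd6-/- stroma. *Tyr*, the melanocyte gene, went the other way, at -0.58 in WT and 0.67 in Jmjd6-/- stroma. These differences in direction were not tested singly, and the *Gata2* level of Jmjd6-/- RANKL replicate 2 equalled the unstimulated one to 3 digits. Each rests on 1 unstimulated library a genotype and on few fragments, at most 4 in a library for *Ms4a2* and at most 15 for *Gata2*.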

How the results depend on the processing

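Between genotypes under RANKL 372 genes were called. The count was 241 with 0.01 FPKM added, 2 without the filter and 231 with a filter at a mean of 1 FPKM, and ranged from 104 to 4264 when a library was left out: 4264 without WT RANKL replicate 1, 2019 without WT RANKL replicate 2, 234 without Jmjd6-/- RANKL replicate 1 and 104 without replicate 2. For RANKL 2329 genes were called, 1087 without the filter, and 3549, 3675, 1170 and 1272 (range 1170 to 3675) without these libraries in the same order. For the difference in response the count of 0 became 176 without the filter and ranged from 0 to 5 with a library left out. The causes were not tested. With the replicate number as a block, 1477 genes were called between genotypes and 94 for the difference in response, but libraries of like number share only a number, in 2 pairs. The call of *Kdr* with RANKL was lost under the block.

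The mucosal proteases less the other 8 genes, -3.15, were at -2.04 with 1 FPKM added, at -3.5 with a filter at a mean of 1 FPKM, and between -3.74 and -2.77 with a library left out. In 2 settings chosen after seeing the data they were at -2.30 with the filter at 0.1 FPKM and at -2.11 against *Mcpt4*, *Cpa3* and *Tpsb2*. No called difference that was recomputed changed direction in the alternatives run. *Lat2*, *Lyn*, *Jag1*, *Il33*, *Ltf* and *Csf1r* were not recomputed, so how far their calls depend on the settings is not known. Among 86 differences recomputed, 10 that were not called changed sign when 1 library was left out, 3 of them of the 10 genes: *Fcer1a* between genotypes, from -0.27 to 0.31 without WT RANKL replicate 2 and 0.03 without Jmjd6-/- RANKL replicate 1, *Kit* between genotypes, from -0.01 to 0.16 without Jmjd6-/- RANKL replicate 2 and 0.07 without WT RANKL replicate 1, and *Gata2* with RANKL, from 0.06 to -0.03 without WT RANKL replicate 2. The other genes were *Cd14*, *Csf2rb*, *Csf2rb2*, *Gfi1b*, *Itgb8*, *Ptprc* and *Zfpm1*, each between genotypes. Without the filter, the genotype calls of *Cma1*, *Tpsg1*, *Il9*, *Mpo*, *Ngp*, *Prg2*, *Pecam1* and *Cdh5* were lost. *Tpsg1* was also lost with 1 FPKM added, *Il9* with 1 FPKM added or without Jmjd6-/- RANKL replicate 2, and *Mpo*, *Ngp* and *Prg2* with 0.01 FPKM added or without Jmjd6-/- RANKL replicate 2. With RANKL, *Mpo* and *Ngp* were lost without the filter, without the trend or with 1 FPKM added. Depth limits all protease values in Jmjd6-/- stroma, where 3 fragments of *Mcpt1* correspond to 0.133 to 0.213 FPKM.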
